A study of Mus musculus with 20 samples.

Results

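The baseline transcript profile described here is that of small intestinal crypts of wild-type C57BL/6 mice that were housed by genotype. Its 6 libraries were chosen by their labels, as wild-type replicates 1 to 6 without a note of co-housing, with earlier results of these data known. They make up 6 of the 20 libraries of the series. The other 14 libraries come from 5 co-housed wild-type mice, 4 Xiap-/- mice housed by genotype and 5 co-housed Xiap-/- mice, with co-housing lasting 4 weeks. These 14 serve below to see whether genes that varied together in the 6 libraries also did so elsewhere. They also enter the definition of a stand-in for sequencing depth that is explained below. The 6 mice carried no deletion and received no treatment that the labels name. Their age, sex, cages and time of collection, and the stretch of small intestine taken, are not given in the sources used here. On the deposited log2 scale, Xist lay between 8.84 and 10.06 in the 6 libraries. The Y chromosome genes Kdm5d and Uty were at most -1.99 and -3.43, a pattern known from female mice. The text on RNA isolation names liver, while the other labels give crypts. RNA was read in bulk, as a pool of all cells in a preparation, from the 3′ ends of polyadenylated transcripts.

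Crypts are pits in the intestinal wall in which stem cells divide and supply the epithelium. Paneth cells at the base secrete antimicrobial peptides, goblet cells secrete mucus proteins, and absorptive cells mature while they move up towards the villi. Many genes of this epithelium are known to respond to gut microbes, among them Reg3b and Reg3g, secreted lectins that act on bacteria, and the MHC class II genes, whose products present peptides to T cells.

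All levels are on the deposited log2 scale, on which a difference of 1 stands for a factor of 2 if the scale is a plain logarithm. The values of the 6 libraries ran from -3.88 to 16.30. Since reads come from transcript ends, levels of different genes were compared without division by length. Depth is unknown. As a stand-in, the share of very rare genes that stood above their resting value in a library was 7.55%, 5.39%, 7.17%, 6.69%, 14.9% and 4.58% in replicates 1 to 6. Replicate 5 was thus the highest by this measure and replicate 6 the lowest. Both the rare genes and their resting values, the medians, were defined over all 20 libraries of the series. Over the 9513 genes with a mean of at least 3.32, the log2 of 10, Pearson's r between pairs of libraries lay between 0.977 and 0.990, a correlation across genes. Errors are SD over the 6 libraries. Nothing in the labels says more than that these are separate mice, and no p-value is given for levels or spread.

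A few transcripts carried much of the profile. The 10 genes with the highest mean held 16.8% ± 2.60 of the summed linear level, the top 100 held 35.8% ± 2.03 and the top 500 held 54.9% ± 1.44. The share of the top 10 was 17.0%, 17.0%, 16.1%, 18.8%, 12.3% and 19.8% in replicates 1 to 6. Replicate 5 was the lowest and replicate 6 the highest, the reverse of their order in the stand-in for depth, and the part of depth in this share was not tested.

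The highest means belonged to mitochondrial and ribosomal RNA. The mitochondrial ribosomal RNA genes mt-Rnr2 and mt-Rnr1 had means of 15.81 ± 0.40 and 15.30 ± 0.49, and mt-Rnr2 was above mt-Rnr1 in 6 of 6 libraries. Gm42418, an annotated long noncoding RNA (chromosome 17, 39846958 to 39848788 in GRCm38), followed at 15.26 ± 0.54. Its place is one where ribosomal RNA sequence lies, which is background knowledge and not a result of these values. The respiratory chain genes mt-Cytb, mt-Nd1 and mt-Nd4 had means of 14.95 ± 0.37, 14.10 ± 0.40 and 14.01 ± 0.32. All 28 mitochondrially encoded genes in the table together held 11.2% ± 2.16 of the summed level, from 7.62% in replicate 5 to 13.5% in replicate 4.

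Among nuclear genes that encode proteins, the first was the Paneth cell alpha-defensin Defa24, an antimicrobial peptide. Its level was 14.10, 13.95, 14.30, 14.30, 14.18 and 14.26 in replicates 1 to 6, with a mean of 14.18 ± 0.14. These 6 values lay close together, with a ratio of 1.27 between the highest and the lowest. Defa24 shares stretches of 84, 58 and 34 identical bases with Defa30, Defa17 and AY761184. Reads lying wholly within such a stretch could not be assigned to 1 gene. Whether any did was not checked, so the levels of single alpha-defensins are uncertain. Next came the fatty acid binding protein Fabp2 of absorptive cells, at 13.83 ± 0.35, and the apolipoprotein Apoa1, at 13.58 ± 0.34. The cytoskeletal actin Actb stood at 13.54 and a further alpha-defensin, Defa30, at 13.43 ± 0.19. Reg3b reached 13.30 ± 0.70 and Reg3g 12.74 ± 0.81, the widest spreads among the 30 highest genes.

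Several products of secretory and absorptive cells completed the top 30. The goblet cell genes Zg16, a lectin of mucus, and Tff3, a trefoil peptide, had means of 12.88 ± 0.22 and 12.24 ± 0.21. Fabp1, a fatty acid binding protein, stood at 12.85 ± 0.40, and Apoa4, an apolipoprotein of lipid export, at 12.39 ± 0.41. Pigr, which moves IgA through the epithelium into the gut, had 12.72 ± 0.32. Fabp6, the bile acid binding protein of the ileum, had 12.42 ± 0.26, and the intelectin Itln1 had 12.40 ± 0.21. The galectin Lgals4 was the steadiest of the 30, at 12.62 ± 0.11.

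The order of neighbours in this ranking was often not fixed. Defa24 lay above mt-Nd1 in 4 of 6 libraries, Fabp2 above Apoa1 in 4 of 6, and Apoa1 above Actb in 3 of 6. Reg3g lay above Pigr in 3 of 6, although their means differ by little. Steps that held in 6 of 6 libraries were those from mt-Rnr2 to mt-Rnr1, from mt-Cytb to Defa24 and from the LIM domain gene Crip1 (13.09) to Zg16.

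**Figure D1:**
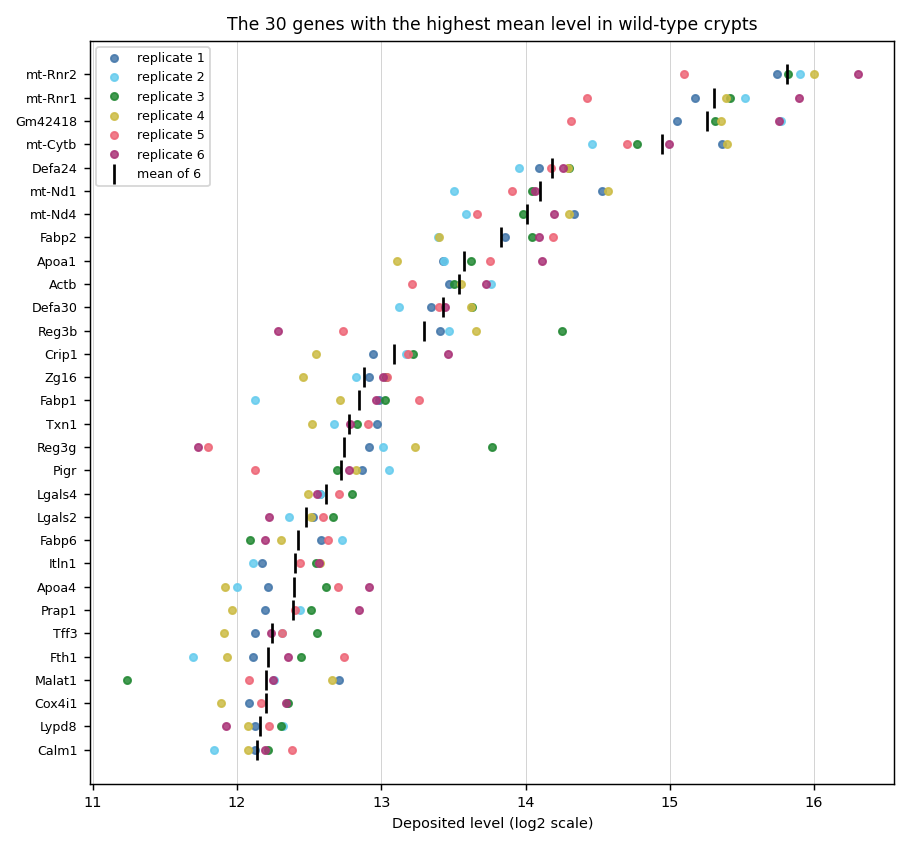
Deposited log2 level (x axis) of the 30 genes with the highest mean (y axis), with 1 point per wild-type library and a black tick for the mean of 6. Defa24 and Lgals4 points lie close together, while those of Reg3b and Reg3g span about 2 units, from 12.28 to 14.25 and from 11.73 to 13.77.

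The labelled tissue was checked against marker lists, each summed on the linear scale and given as a percentage of the library total. The lists differ in size, so a sum ranks products and does not count cells, and in bulk RNA fewer cells of a type cannot be told apart from less RNA per cell. Absorptive cell markers held the most, 4.35% ± 0.75, with 19 of 19 above the minimum mean. Paneth cell markers held 3.40% ± 0.37 and goblet cell markers 1.40% ± 0.13, with 18 of 23 and 13 of 14 of those in the table above the minimum. The absorptive list was above the Paneth list in 5 of 6 libraries, the exception being replicate 4, with 3.45% against 3.87%. The Paneth list was above the goblet list in 6 of 6.

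Markers of dividing cells held 0.114% ± 0.011 (21 of 21 above the minimum) and those of crypt base stem cells 0.062% ± 0.0059 (14 of 16). The stem cell receptor Lgr5 was at 4.66, 4.69, 4.39, 4.54, 4.60 and 4.66, a mean of 4.59 ± 0.11, and Olfm4, a secreted stem cell product, at 6.01 ± 0.27. The proliferation genes Top2a and Mki67 had means of 8.05 ± 0.28 and 7.65 ± 0.27. Crypt cell products were thus present in every library. Genes that mark differentiated absorptive cells, most of which sit on the villi, were present at higher levels, such as the sucrase gene Sis at 10.97 ± 0.34 and the alkaline phosphatase gene Alpi at 9.61 ± 0.43. How much RNA came from villus cells was not tested.

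Markers of hormone cells and tuft cells were also measured. Enteroendocrine markers held 0.114% ± 0.014, with 15 of 20 above the minimum, led by the incretin gene Gip at 8.79 ± 0.27 and the secretin gene Sct at 8.02 ± 0.27. Tuft cell markers held 0.0137% ± 0.0010, with 10 of 16 above the minimum and the leukotriene synthase Ltc4s at 5.02 ± 0.20.

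Other cell types left uneven traces. T cell markers held 0.111% ± 0.028, with 16 of 19 above the minimum, and Gzma, a granzyme of killer lymphocytes, stood at 9.37 ± 0.34. The T cell sum was 0.141%, 0.106%, 0.105%, 0.0900%, 0.146% and 0.0758% in replicates 1 to 6, so replicates 1 and 5 were high and replicate 6 low. B and plasma cell markers held 0.0081% ± 0.0024 (4 of 12 above the minimum), myeloid and mast cell markers 0.0088% ± 0.0005 (5 of 16) and stromal markers 0.0022% ± 0.0002 (1 of 15). None of the 7 glial and neuronal markers in the table reached the minimum, and hepatocyte markers held 0.0014%, with 1 of 6 in the table above it. Pancreatic acinar markers held 0.0213% ± 0.0051 with 3 of 13 in the table above the minimum, the highest being the colipase gene Clps at 7.87.

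Markers of the distal small intestine outweighed those of the proximal part in 6 of 6 libraries, with 0.437% ± 0.075 against 0.101% ± 0.025. Fabp6 alone held 0.351% ± 0.072, so the higher distal sum rests on this gene. Without it the mean of the distal sum falls below that of the proximal sum. The bile acid exporter subunits Slc51a and Slc51b stood at 9.88 ± 0.16 and 8.33 ± 0.31. The lactase gene Lct, on the proximal list, stood at 10.23 ± 0.48, and the iron exporter gene Slc40a1 at 6.37 ± 0.19.

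**Figure D2:**
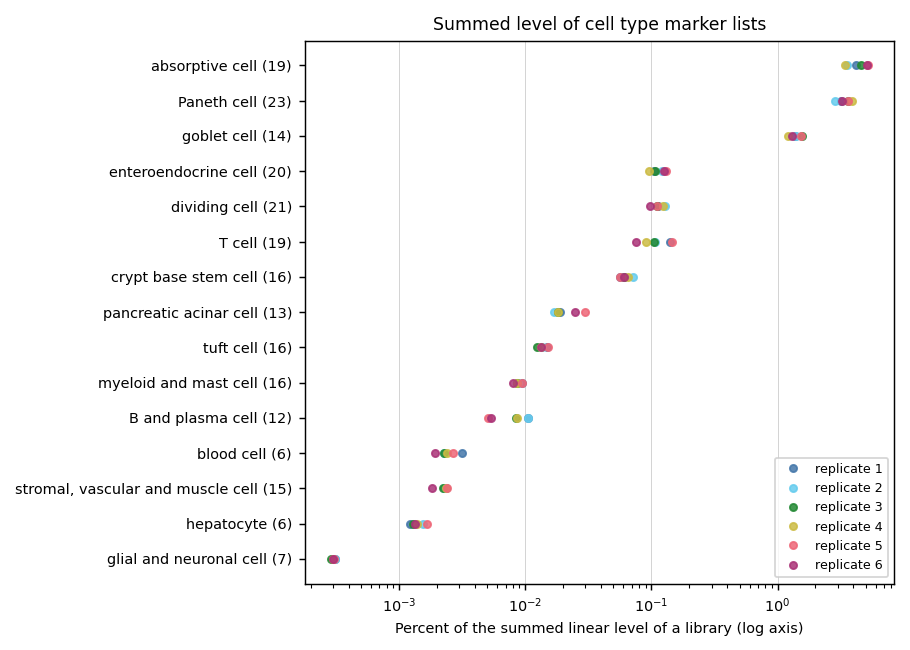
Share of each library's summed linear level (x axis, log scale, in percent) taken by lists of cell type markers (y axis, with the number of markers in the table), with 1 point per wild-type library. Absorptive, Paneth and goblet cell products lead, at means of 4.35%, 3.40% and 1.40%, and glial and hepatocyte markers lie at the bottom.

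Most genes differed little between the 6 mice. The median SD over 9513 genes was 0.17, and 51 genes (0.536%) had an SD of 0.5 or more. The highest and lowest library differed by at least 1 in 223 genes (2.34%). The median SD rose slowly with the level, from 0.15 for means of 3.32 to 5 to 0.26 for means above 11. The transformation of the values is not given, and its part in these SDs was not tested. Steady genes, singled out after their values were seen, included the thioredoxin reductase gene Txnrd1, at 8.43 ± 0.068, and the DNA replication gene Mcm4, at 5.22 ± 0.083.

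Pathway lists differed in how far their members spread. The median SD of members above the minimum mean was 0.65 for MHC class II (6 genes) and 0.54 for microbe-responsive genes (11 genes), against 0.17 over all genes. It was 0.35 for xenobiotic metabolism (24 genes), 0.30 for absorptive cell markers (19) and 0.39 for mitochondrially encoded genes (15). It was 0.18 for interferon-stimulated genes (16), 0.17 for immediate early and heat shock genes (11), 0.20 for ER stress genes (15) and 0.16 for cholesterol synthesis genes (20). Part of such differences goes with level. The absorptive list had a median level of 10.97, and all genes with means of 9 to 11 had a median SD of 0.21. For the xenobiotic list the median level was 7.84, and genes with means of 7 to 9 had 0.19.

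Values of single members follow. The ER chaperone gene Hspa5 was 9.91, 9.52, 10.22, 10.15, 9.92 and 9.90 in replicates 1 to 6. Pdia4, a protein disulfide isomerase with the widest spread of that list, was 7.11, 7.03, 7.28, 7.82, 6.81 and 6.71. The immediate early gene Fos, which rises within minutes of cell stimulation, was 7.88, 7.70, 7.26, 7.77, 7.63 and 7.54. Its values spanned less than 1 unit, and Hspa8, a constitutive heat shock protein gene, spanned less still, at 9.94 ± 0.096. Mt1, a metal binding metallothionein, had 9.68 ± 0.30, and the carboxylesterase gene Ces2e led the xenobiotic list at 11.49 ± 0.28. The ribosomal protein genes, of which 67 of 87 passed the minimum mean, held 1.70% ± 0.17 of the summed level, and their highest member Rpl8 had 11.08 ± 0.11.

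The 100 genes with the highest SD, the variable genes of the text below, were taken for a closer look. The last of them was Cbr1, with an SD of 0.439, and the first left out had 0.438, so the limit falls in no gap. The highest SD belonged to Saa1, an acute phase protein of the epithelium (chromosome 7, 46740497 to 46742980), at 1.27. Its level was 6.84, 7.67, 8.12, 7.49, 4.86 and 5.69 in replicates 1 to 6. Replicates 5 and 6 were the lowest and replicate 3 the highest, 9.64 times replicate 5 on the linear scale. An SD of 1 or more was found in 1 other gene, the ribosomal RNA gene n-R5-8s1, with 1.04.

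**Figure D3:**
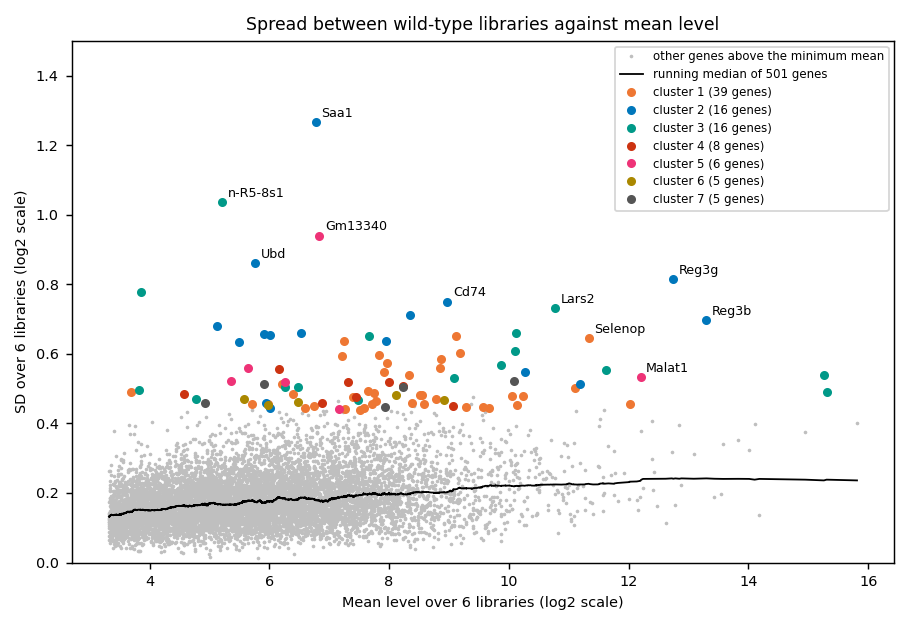
SD over the 6 wild-type libraries (y axis, log2 scale) against the mean level (x axis, log2 scale) of the 9513 genes above the minimum mean, with the 7 clusters of variable genes in colour. The black line is the running median of SD, and Saa1 stands highest at an SD of 1.27.

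Variable genes moved in blocks. Average-linkage clustering on Pearson's r over the 6 libraries, with branches joined up to a distance of 0.3, put 95 of the 100 genes into 7 clusters of at least 5 genes. Since the values chose both the genes and the clusters, they are descriptions with no test. Without replicate 3 there were 4 such clusters. With all 6 libraries, 5 genes joined no cluster, namely Arpc3, Mmp7, Mptx2, Reg1 and Slc25a5. Of these, the Paneth cell protease Mmp7 was 8.27, 8.12, 9.03, 8.88, 8.32 and 7.87 in replicates 1 to 6, high in replicates 3 and 4.

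**Figure D4:**
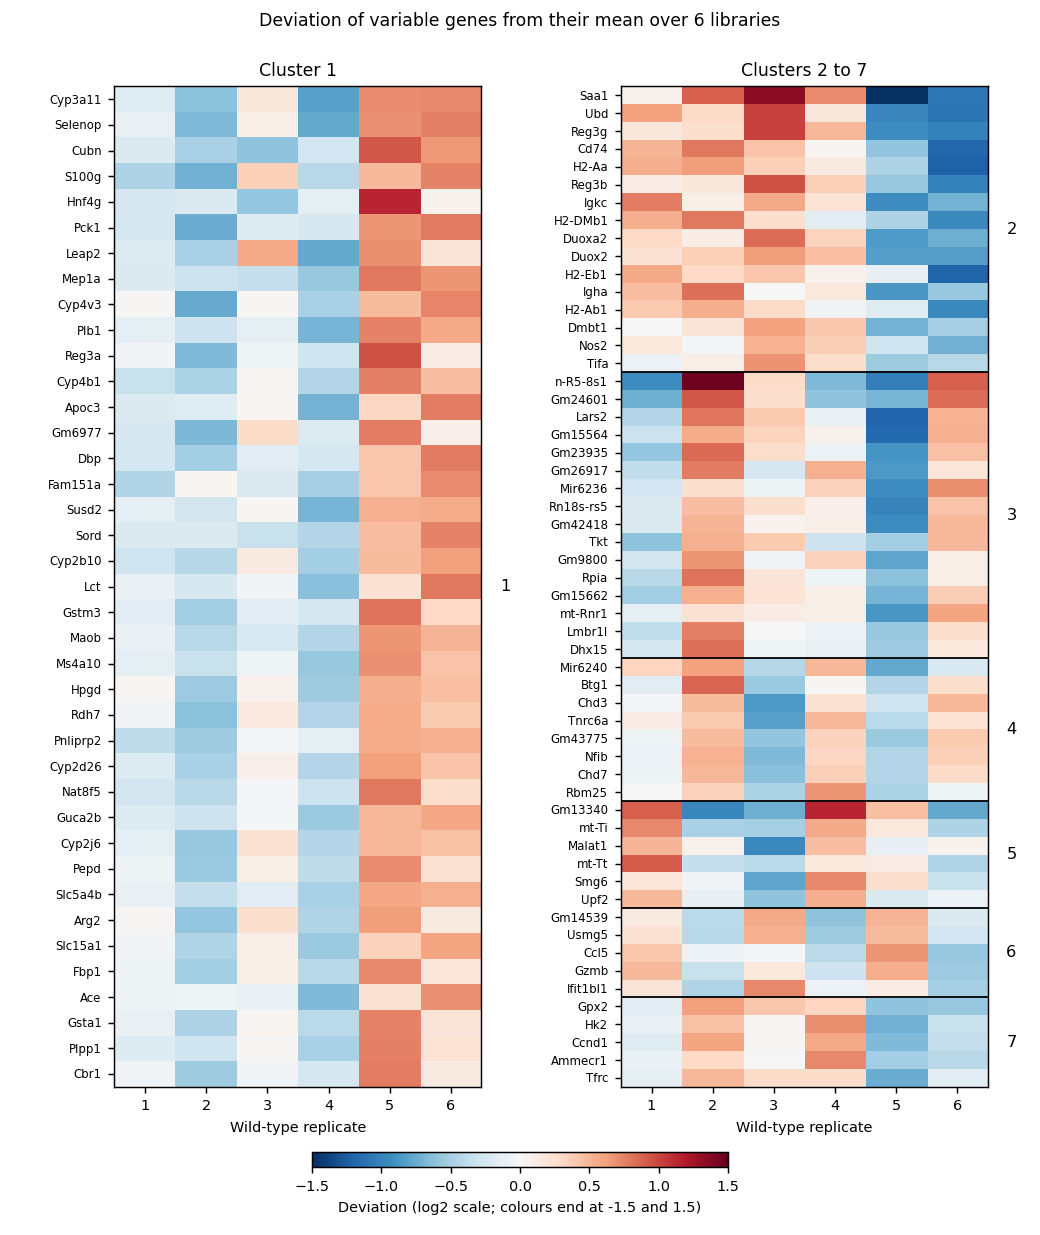
Deviation from the gene's own mean (colour, log2 scale, red above and blue below) of the 95 clustered variable genes (rows) in wild-type replicates 1 to 6 (columns), with cluster numbers on the right. Replicates 5 and 6 are red throughout most of cluster 1 and blue in all of cluster 2, while cluster 3 is blue in replicates 1 and 5.

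The first cluster held 39 of the 9513 genes above the minimum mean. It included several genes of absorptive cells and of drug metabolism. Also among its members were the clock gene Dbp, the lectin gene Reg3a and the pancreatic lipase relative Pnliprp2. Replicate 5 was among the 2 highest libraries for 39 of the 39 genes and replicate 6 for 36, while the lowest library was replicate 2 for 19 genes and replicate 4 for 18. Cyp3a11, a cytochrome P450 that oxidises drugs and bile acids (chromosome 5, 145854426 to 145879964), was 8.94, 8.51, 9.30, 8.31, 9.83 and 9.85 in replicates 1 to 6. Its values in replicates 5 and 6 lay above the other 4, with a ratio of 2.90 between the highest and the lowest library. Selenop, the plasma carrier of selenium (chromosome 15, 3268547 to 3280508), was 11.22, 10.67, 11.42, 10.57, 12.02 and 12.09, again highest in replicates 5 and 6. Cubn, the receptor for vitamin B12 with intrinsic factor, was 7.03, 6.76, 6.64, 6.95, 8.18 and 7.90.

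Among the other members, S100g, a calcium binding protein of absorptive cells, ranged from 8.46 in replicate 2 to 9.92 in replicate 6. Pck1, an enzyme of glucose synthesis, ranged from 6.46 to 7.99 in the same libraries. The brush border genes Mep1a (a protease), Lct (lactase), Ace (a peptidase) and Slc15a1 (a peptide transporter) had ranges of 1.35, 1.43, 1.35 and 1.15. The drug metabolism genes Cyp2b10, Cyp2d26, Gstm3 and Gsta1 were all members, 4 of the 24 genes of the xenobiotic list above the minimum mean. Of the 19 absorptive markers only Cyp3a11 and Apoc3 were, although the summed absorptive share was also highest in replicates 5 and 6, with 5.17% and 5.16%. Hnf4g, a transcription factor of absorptive cells, was 7.57, 7.61, 7.25, 7.67, 8.97 and 7.88, so that replicate 5 alone stood well above the rest.

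Replicates 5 and 6 had the highest and the lowest value of the stand-in for depth, 14.9% and 4.58%, so this cluster was high at both ends of it. After a line on that measure was removed from every gene, 27 of the 39 genes were still among the variable genes and in 1 cluster. A straight line cannot take out a pattern that runs the same way at both ends, so the part of depth was not tested.

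The second cluster, with 16 genes, ran the other way and held genes of antimicrobial defence, MHC class II and immunoglobulin. For 16 of 16 genes the 2 lowest libraries were replicates 5 and 6. Reg3g (chromosome 6, 78466269 to 78468872) was 12.92, 13.01, 13.77, 13.24, 11.80 and 11.73 in replicates 1 to 6. Replicate 3 was 4.12 times replicate 6 on the linear scale, a wide range for a gene of this abundance. Reg3b, its neighbour 92802 bases away, was 13.41, 13.47, 14.25, 13.65, 12.73 and 12.28, in the same order of libraries. The 2 transcripts share a stretch of 35 identical bases. Reads lying wholly within it could not be assigned to 1 of them, and whether any did was not checked.

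Genes of oxidant production took the same course. Duox2, an oxidase that makes hydrogen peroxide at the epithelial surface, was 6.23, 6.37, 6.64, 6.46, 5.18 and 5.19. Duoxa2, its maturation factor 450 bases away, was 6.21, 6.03, 6.75, 6.24, 5.06 and 5.18. Replicates 5 and 6 lay below the other 4 for both, at 5.19 or lower. Nos2, which makes nitric oxide, had a mean of 5.94 ± 0.46, and Dmbt1, a secreted scavenger receptor of the mucosa, one of 11.19 ± 0.51. Ubd, a ubiquitin-like protein, was 6.37, 6.06, 6.79, 5.94, 4.77 and 4.67.

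Of the 17 microbe-responsive genes in the table, 11 passed the minimum mean. Of these, 6 were in the second cluster (Saa1, Reg3g, Reg3b, Duoxa2, Duox2 and Nos2), which held 16 of the 9513 genes. A further 1, the lectin gene Reg3a, was in the first. Reg3a was 8.30, 7.67, 8.27, 8.04, 9.29 and 8.44, highest in replicate 5, where Saa1 was lowest and Reg3b and Reg3g were second lowest. The summed share of the list was 1.72%, 1.87%, 2.51%, 2.00%, 1.02% and 0.957% in replicates 1 to 6.

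Of the 7 listed MHC class II genes, 6 passed the minimum mean and 5 were in the second cluster, which held 16 of the 9513 genes. H2-Aa, an alpha chain (chromosome 17, 34282744 to 34287823), was 8.89, 8.98, 8.71, 8.48, 7.88 and 7.14 in replicates 1 to 6. Cd74, the invariant chain that guides class II molecules, was 9.48, 9.77, 9.40, 9.01, 8.39 and 7.79. H2-Ab1, a beta chain, was 10.66, 10.81, 10.54, 10.21, 10.09 and 9.30. All of these were lowest in replicate 6 and highest in replicate 2, whereas Reg3g and Saa1 were highest in replicate 3. The class I genes H2-K1 and B2m spread less, at 11.41 ± 0.14 and 11.28 ± 0.27, and B2m was highest in replicate 5, at 11.69.

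Immunoglobulin genes, products of plasma cells, varied with them. Igha, the constant region of IgA, was 5.95, 6.31, 5.49, 5.65, 4.61 and 4.92, and the light chain gene Igkc was 5.90, 5.24, 5.70, 5.34, 4.21 and 4.43. Replicates 5 and 6 were lowest for both. The B and plasma cell list held 0.0105%, 0.0105%, 0.0084%, 0.0087%, 0.0050% and 0.0053% of the summed level, with 4 of the 12 markers in the table above the minimum. Myeloid markers, in contrast, stayed between 0.0081% and 0.0095%. The part of these cells in the MHC class II values was not tested.

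Under other settings the second cluster fell apart, not always in the same way. With Spearman's rho in place of Pearson's r, or without replicate 5, it fell into 8 genes with Saa1, Reg3b, Reg3g, Duox2, Duoxa2, Dmbt1, Nos2 and Tifa, and 8 with the MHC class II and immunoglobulin genes and Ubd. Without replicate 6 the parts held 9 and 7 genes, with Ubd beside the Reg3 genes. Without replicate 3 they held 11 and 5, with Igha and Igkc beside the Reg3 genes and 5 MHC class II genes by themselves. At a distance of 0.2 they held 10 and 6, with Ubd and Igkc beside the Reg3 genes. Its 16 genes were still in 1 cluster after a line on the stand-in for depth was removed. This cluster was lowest in replicates 5 and 6, at both ends of that measure. A straight line cannot take out such a pattern, and the part of depth was not tested.

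Promoter sequences are shown for some members of these clusters, since genes of 1 block can be set beside the letters upstream of their starts. Apart from Reg3g, those shown carry a marked element, so they do not stand for their clusters. The sequences are the 250 bases upstream of the annotated start, 5′ to 3′ on the gene's strand, from RefSeq on GRCm38.p6. Capitals mark the Y box CTGATTGG, an element of class II promoters, in H2-Aa (chr17:34287824-34288073, minus strand) and H2-Eb1 (chr17:34305617-34305866, plus strand). They mark the STAT element TTCNNNGAA in Reg3b (chr6:78370635-78370884, plus strand) and the HNF4 element CAAAGTCCA in Cyp3a11 (chr5:145879855-145880104, minus strand). Reg3g (chr6:78468875-78469124, minus strand) is shown as the partner of Reg3b and has no capitals.
H2-Aa: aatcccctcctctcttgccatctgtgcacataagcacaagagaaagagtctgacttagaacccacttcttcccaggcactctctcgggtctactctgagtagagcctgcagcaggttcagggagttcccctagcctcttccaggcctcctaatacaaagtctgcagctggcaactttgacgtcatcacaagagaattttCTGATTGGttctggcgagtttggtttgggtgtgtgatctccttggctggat
H2-Eb1: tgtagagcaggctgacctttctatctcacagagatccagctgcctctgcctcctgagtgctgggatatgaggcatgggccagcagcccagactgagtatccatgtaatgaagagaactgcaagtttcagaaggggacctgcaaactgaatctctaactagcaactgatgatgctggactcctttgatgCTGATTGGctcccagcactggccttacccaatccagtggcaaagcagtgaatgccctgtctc
Reg3b: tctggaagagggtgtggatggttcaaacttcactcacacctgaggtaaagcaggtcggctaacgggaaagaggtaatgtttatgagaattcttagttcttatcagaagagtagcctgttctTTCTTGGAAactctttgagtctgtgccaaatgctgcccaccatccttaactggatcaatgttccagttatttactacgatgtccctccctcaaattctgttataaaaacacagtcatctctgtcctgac
Reg3g: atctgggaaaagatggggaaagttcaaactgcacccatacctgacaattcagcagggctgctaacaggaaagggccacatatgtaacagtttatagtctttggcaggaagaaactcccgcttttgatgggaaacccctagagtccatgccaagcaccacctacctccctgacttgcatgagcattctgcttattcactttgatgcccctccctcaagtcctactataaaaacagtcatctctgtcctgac
Cyp3a11: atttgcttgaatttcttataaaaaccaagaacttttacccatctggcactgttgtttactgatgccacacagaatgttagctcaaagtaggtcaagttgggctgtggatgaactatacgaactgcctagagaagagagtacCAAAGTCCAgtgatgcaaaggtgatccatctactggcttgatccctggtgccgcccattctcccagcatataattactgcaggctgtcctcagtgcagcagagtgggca

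The Y box lay 51 to 44 bases upstream of the start in H2-Aa and 62 to 55 in H2-Eb1. Both strands were searched in the 250 bases upstream of the start. The Y box was found in 2 of the 10 genes of the second cluster with a promoter in the table and in 3.83% of all 32851 promoters. The STAT element was found in 1 of these 10 (Reg3b, 129 to 121 bases upstream), in 5 of 31 genes of the first cluster and in 7.02% of all promoters. The HNF4 element was found in 1 of the 31 (Cyp3a11, 109 to 101 bases upstream) and in 0.384% of all. An NF-kB element was found in 1 of the 10 (Ubd) and in 1.41% of all, and the CDX element TTTATG in 7 of the 31, 2 of the 10 and 10.8% of all. Cluster counts are of genes with a match in any of their promoters, while the shares of all count single promoters. A match describes letters only, and these shares were not tested.

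The third cluster, with 16 genes, was led in SD by ribosomal RNA genes. The 5.8S ribosomal RNA gene n-R5-8s1 was 4.27, 6.67, 5.49, 4.56, 4.19 and 6.11 in replicates 1 to 6, and Gm42418 was 15.05, 15.77, 15.32, 15.35, 14.32 and 15.75. Lars2, a mitochondrial leucyl-tRNA synthetase, was 10.34, 11.58, 11.16, 10.68, 9.59 and 11.29. Replicate 2 was highest for 14 of the 16 genes, replicate 5 lowest for 14, and replicates 1 and 5 were the 2 lowest for all 16. By annotation the cluster held 5 protein-coding genes, 2 ribosomal RNA genes, 1 mitochondrial ribosomal RNA gene (mt-Rnr1), 2 long noncoding RNAs, 2 miRNA entries, 1 antisense RNA, 1 pseudogene and 2 names without a match.

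Some of these genes share sequence or position. Lars2 and Gm15564 share 52 identical bases, and Gm26917 lies 616 bases from Gm42418. Of the protein-coding members, the transketolase gene Tkt was 8.47, 9.62, 9.47, 8.77, 8.57 and 9.57, and Rpia, a further enzyme of the pentose phosphate pathway, was 6.06, 7.29, 6.67, 6.40, 5.85 and 6.56. The cluster was lowest in the library with the highest stand-in for depth. After a line on that measure was removed, 4 of its 16 genes were left together among the variable genes. The part of depth in this cluster was not tested further.

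The other 4 clusters were smaller. The fourth, with 8 genes, held the chromatin remodellers Chd3 and Chd7, the transcription factor Nfib, Tnrc6a of the miRNA silencing complex and the splicing factor Rbm25. Replicates 3 and 5 were the 2 lowest for 8 of 8 genes. Chd3, for example, was 7.98, 8.47, 7.13, 8.21, 7.70 and 8.49. Without replicate 3 or without replicate 5, 5 of the 8 genes were still in 1 cluster.

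The fifth, with 6 genes, held the nuclear noncoding RNA Malat1 (chromosome 19, 5795690 to 5802672) at 12.71, 12.26, 11.23, 12.66, 12.08 and 12.25. Replicate 3 was low and replicates 1 and 4 were high. Its members also included the mitochondrial tRNA genes mt-Ti and mt-Tt and the genes Smg6 and Upf2, both of nonsense-mediated decay. None of its genes was in a cluster without replicate 1, 3 or 4, and 3 were in 1 cluster without replicate 5.

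The sixth, with 5 genes, held 2 products of killer lymphocytes. The chemokine gene Ccl5 was 9.34, 8.83, 8.91, 8.53, 9.58 and 8.35, and the granzyme gene Gzmb 6.97, 6.15, 6.65, 6.17, 7.03 and 5.95. Both were high in replicates 1 and 5. Both are on the T cell list, so its sum is no independent measure of them. The cluster also held Usmg5 and the pseudogene Gm14539, whose transcripts share 174 identical bases and cannot be told apart there. None of its genes was in a cluster without replicate 2, 3 or 5, and 3 were in 1 cluster without replicate 4.

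The seventh, with 5 genes, held Gpx2, the glutathione peroxidase of the gut epithelium, at 9.92, 10.70, 10.49, 10.41, 9.48 and 9.51. It also held the cell cycle gene Ccnd1 (8.06, 8.83, 8.28, 8.80, 7.58 and 7.88), the hexokinase gene Hk2, Ammecr1 and the transferrin receptor gene Tfrc. Replicates 5 and 6 were the 2 lowest for 5 of 5 genes. With any 1 library left out, 4 or 5 of these genes were in 1 cluster.

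The same groups of genes were then followed in the 14 libraries that had not formed them. There, each value was taken as its deviation from the mean of its own group, which removes differences between groups. The median r between gene pairs of the first cluster was 0.88 in the 6 libraries and 0.51 in the other 14. It went from 0.83 to 0.37 for the second cluster, from 0.86 to 0.35 for the third, from 0.89 to 0.48 for the fourth and from 0.77 to 0.51 for the sixth. For the fifth and the seventh it went from 0.81 to 0.24 and from 0.91 to 0.25. Over all pairs of the 100 genes it was -0.06 in the 6 libraries and 0.03 in the other 14. These values have no p, since genes of 1 library share its depth and its cells.

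In single groups the first 4 clusters and the sixth kept medians above 0. The first had 0.34 in co-housed wild-type, 0.62 in Xiap-/- housed by genotype and 0.75 in co-housed Xiap-/- libraries. The second had 0.53, 0.31 and 0.43 in the same order. The seventh had -0.39, 0.52 and -0.09, above 0 in 1 of these 3 groups. Without the library of the 14 with the highest stand-in for depth, the medians of the third and the second cluster were 0.25 and 0.32. The median SD of the 100 genes was 0.50 in the 6 libraries that chose them and 0.24 within the other groups.

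**Figure D5:**
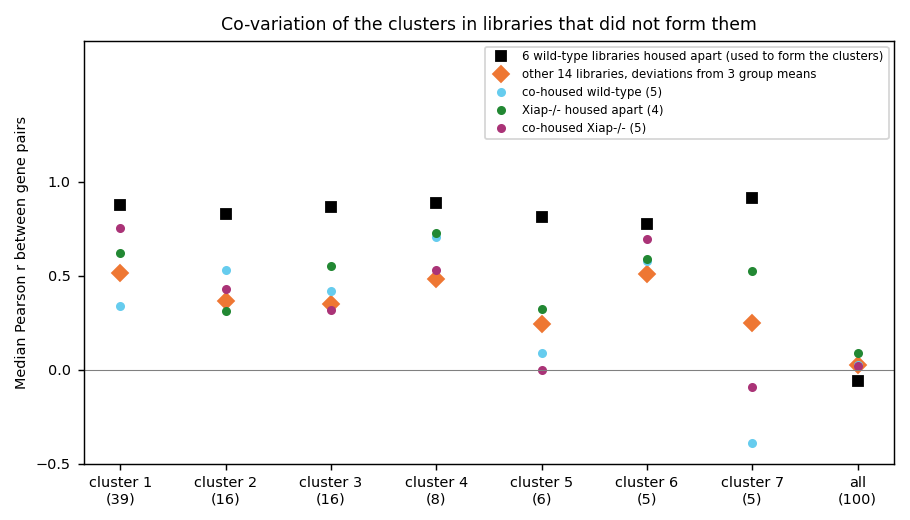
Median Pearson r between gene pairs (y axis) of each cluster and of all 100 variable genes (x axis, with the number of genes), in the 6 libraries that formed the clusters (squares), the other 14 as deviations from group means (diamonds) and each of their groups (circles). Squares of the clusters lie between 0.77 and 0.91, and diamonds between 0.24 and 0.51, against 0.03 for all genes.

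Relations between 12 pairs, of genes or of a gene with the stand-in for depth, were tested over the 6 libraries. The pairs were chosen with earlier results of these data known. Exact permutation tests ran over all 720 orders, two-sided. After Benjamini-Hochberg adjustment 0 of 12 (0%) passed at 0.05, by Pearson's r or by Spearman's rho. Before adjustment 3 passed by r and 1 by rho. The strongest was that of Igha with Pigr, the IgA transporter. Pigr was 12.86, 13.05, 12.69, 12.83, 12.12 and 12.78 in replicates 1 to 6, lowest where Igha was lowest and highest where Igha was highest. Pearson's r was 0.84 (exact permutation p = 0.0139, adjusted p = 0.167) and Spearman's rho 0.94 (exact permutation p = 0.0167, adjusted p = 0.2). Without replicates 5 and 2, the farthest from the median of Igha, r was 0.48, and with any 1 library left out it was 0.77 to 0.98. Leaving out the 2 farthest libraries keeps 4 and narrows the range of the measure, here and below.

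Fabp2, of absorptive cells, and Mki67, of dividing cells, had an r of -0.83 (exact permutation p = 0.0361, adjusted p = 0.178) and a rho of -0.66 (exact permutation p = 0.175, adjusted p = 0.525). With any 1 library left out r was -0.87 to -0.74. Without both replicates 2 and 4 it was -0.06, so that with 4 libraries the relation no longer held. The clock genes Dbp and Arntl, which peak at opposite times of day, had an r of -0.82 (exact permutation p = 0.0444, adjusted p = 0.178) and a rho of -0.71 (exact permutation p = 0.136, adjusted p = 0.525). Dbp was 3.43, 3.18, 3.53, 3.43, 4.11 and 4.47 and Arntl 5.30, 5.45, 5.36, 5.60, 5.17 and 5.13, so replicates 5 and 6 had the highest Dbp and the lowest Arntl. Without these libraries r was -0.23, and with any 1 library left out it was -0.96 to -0.73.

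Fabp6, of the ileum, and Slc40a1, of the proximal gut, had an r of -0.74 (exact permutation p = 0.114, adjusted p = 0.273) and a rho of -0.77 (exact permutation p = 0.103, adjusted p = 0.525). Without replicates 3 and 2 r was -0.47, and with any 1 library left out it was -0.88 to -0.58.

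Reg3g and H2-Ab1, members of the second cluster, had an r of 0.73 (exact permutation p = 0.111, adjusted p = 0.273) and a rho of 0.54 (exact permutation p = 0.297, adjusted p = 0.713). With any 1 library left out r was 0.50 to 0.78. Without both replicates 5 and 6 it was -0.34, so that with 4 libraries the relation no longer held. Gzma and H2-Ab1 had an r of 0.60 (exact permutation p = 0.206, adjusted p = 0.411) and a rho of 0.43 (exact permutation p = 0.419, adjusted p = 0.719), and r was -0.41 without replicates 6 and 4 and 0.21 to 0.74 with any 1 library left out. The other 6 pairs had r between -0.35 and 0.18, with adjusted p of 0.858 or more by the same exact permutation test. They were Reg3g with B2m, with Defa24 and with the stand-in for depth, Defa24 with Tff3, Fos with Hspa1a, and Apoa1 with the stand-in. Hspa1a had a mean of 3.01, below the minimum mean of 3.32.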

How the data were processed

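RNA of small intestinal crypts was sequenced in bulk from 3′ ends with unique molecular identifiers, per the labels' protocols. The authors deposited normalized values on a log2 scale for 23020 rows. DESeq2 1.18.1 and GRCm38.p6 were used, per the submitters' processing notes. The aligner, the transformation and the collapse of identifiers are not given in the sources used here. The values were analysed as deposited, with no pseudocount. Left out were 4 rows with repeated date-like names, and the genes behind 24 such names are not identified here. Spread was ranked over the 9513 genes with a mean of at least log2 of 10. The stand-in for depth uses 1854 genes with a mean below -3 over all 20 libraries of the series. Shares were computed from 2 to the power of the value.

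Python 3.11.15, pandas 2.3.3, numpy 2.4.6 and scipy 1.17.1 were used. The clustering was run on simulated data with planted groups of genes, to see whether it found them. Whether variable genes without planted groups would also form clusters was not tested. Positions are from GENCODE M21 on GRCm38, which held 97.8% of the 9513 symbols. Promoters came from RefSeq.

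The 6 libraries, the lists, the pairs and the rule for naming genes were chosen with earlier results of these data known. The rule takes the 30 highest means, the 30 highest SDs, the 3 highest means and 2 highest SDs of each list, 6 members of each cluster and the genes of the pairs. Other list and cluster members are printed for their roles and were chosen after their values were seen. Alternatives changed the averaging, the minimum mean, the measure of spread, the number of genes, the correlation, the distance and the libraries used. The 1 model fitted was a line of each gene on the stand-in for depth, for its residuals, and no group was compared with another.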

Additional observations from a re-analysis of the deposited data

Results flagged for a closer look

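In 4 of the 171 genes named by the rule and above the minimum mean, 1 library stood so far from the other 5 that its gap to the nearest took up more of the whole range than Dixon's critical value for 6 samples at 95% allows. Chance gives about 1 such case in 20, and over all 9513 genes there were 447 (4.70%). Fgf15, a hormone of the ileum, was 5.54 in replicate 5 and between 4.64 and 4.95 in the others. Hnf4g, a transcription factor of absorptive cells, was 8.97 in replicate 5 and between 7.25 and 7.88 in the others. The stromal marker Vim was 3.64 in replicate 6 and between 4.13 and 4.27 in the others. The goblet cell lectin Zg16 was 12.46 in replicate 4 and between 12.83 and 13.04 in the others. The first 2 of these fall in the library with the highest stand-in for depth, whose part in them was not tested.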

How the results depend on the processing

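No paired analysis was possible because 1 group was described and no groups were compared. The top 30 shared 29 to 30 genes when any library was left out, and the share of the top 10 lay between 16.3% and 17.7%. With mitochondrial genes left out of the total, that share was 10.3%. Ranking by median absolute deviation kept 58 of the 100 variable genes, and leaving out a library kept 71 (without replicate 5) to 93. The count of genes with an SD of 0.5 or more was 35 to 75 in these fits. Among 50 genes there were 4 clusters with 42 genes, and among 200 genes 180 were in clusters. Leaving out a library gave 4 to 7 clusters (4 without replicate 3) with 84 to 93 genes. Residuals from the stand-in for depth kept 69 of the 100 variable genes. For the clusters, these residuals, the choice by excess SD, and the medians in single groups or without the library highest in the stand-in were added after seeing the data. The median r changed sign in co-housed Xiap-/- libraries for the fifth cluster (-0.0018) and the seventh (-0.092), and in co-housed wild-type libraries for the seventh (-0.39). Among pairs with a weak relation, Spearman's rho had the other sign for Reg3g with the stand-in for depth (0.086), Defa24 with Tff3 (0.14) and Apoa1 with the stand-in (-0.14). Centring each library did so for Defa24 with Tff3 (0.039). Leaving out the 2 farthest libraries did so for Reg3g with H2-Ab1 (-0.34), Reg3g with B2m (0.41), Reg3g with the stand-in (0.26), Gzma with H2-Ab1 (-0.41) and Fos with Hspa1a (-0.29). Leaving out 1 library, r ranged from -0.61 to 0.66 for Apoa1 with the stand-in, from -0.56 to 0.44 for Defa24 with Tff3, and from -0.28 to 0.35 for Fos with Hspa1a. It ranged from -0.62 to 0.21 for Reg3g with B2m, from -0.31 to 0.30 for Reg3g with Defa24, and from -0.84 to 0.75 for Reg3g with the stand-in. The cause of these changes was not tested. With 6 libraries, r of single pairs is loosely fixed, and depth is unknown.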
